A study of Mus musculus with 10 samples.

Results

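The 33 genes described here are the transcription factor NRF2 (gene Nfe2l2), its sensor Keap1, enzymes known as NRF2 targets, and the enzymes that make, recycle and use glutathione. They were taken by symbol from the rows of a mouse liver gene count table of 46071 rows, and each of the 33 had 1 row. A filter on low counts left 31 of them among 14820 genes tested, and it removed Slc7a11 and Gstp1. Polyadenylated liver RNA was sequenced in 10 libraries, grouped by the parents' genotype. All parents were homozygous for a loxP-flanked insulin receptor gene (IRlox/lox). LIRKO parents also carried 1 copy of Albumin-Cre, a transgene whose promoter drives the Cre recombinase in hepatocytes, and so lack the insulin receptor there. The 4 control libraries came from offspring of a control father and a control mother, both without Cre, the 3 FL libraries from offspring of a LIRKO father and a control mother, and the 3 ML libraries from offspring of a control father and a LIRKO mother. The offspring's own Cre genotype, sex, age, litter and diet are not given in the labels. The question is whether the NRF2 and glutathione programme of the offspring's liver differs with a parent's loss of the hepatic insulin receptor.

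NRF2 is held in the cytoplasm by KEAP1, which hands it to a ubiquitin ligase for degradation. Oxidants and electrophiles modify KEAP1, and NRF2 then enters the nucleus, pairs with a small MAF protein and binds antioxidant response elements near its target genes. The targets include quinone reductase, both subunits of the enzyme that limits glutathione synthesis, thioredoxin system genes and many glutathione transferases. Hepatocytes export glutathione to the rest of the body and use it to conjugate electrophiles and to reduce peroxides, so the liver is among the tissues where these enzymes are most abundant.

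The core of an antioxidant response element is the 9-letter motif TGACNNNGC, and it was searched on both strands of the promoter windows that the RefSeq table (build GRCm38.p6) holds, from 250 bases before to 50 bases after each start. Windows were there for 28 of the 33 genes, without Hmox1, Gclc, Gsr, Gsta4 and Gstt2. The motif was in at least 1 window of 8 of the 28 genes (28.6%), against 14.0% of 27025 genes in the table. The 8 were Gsta3, Nfe2l2, Srxn1, Gclm, Prdx1, Ugdh, Mgst1 and Txnrd1. With the looser core TGANNNNGC it was in 15 of 28 (53.6%) against 45.0%. A match is a description of the letters and not a bound site. The stretches below, 5′ to 3′ on the gene's strand with the motif in capitals, show the letters for the transcription factor itself and for genes of 4 roles: glutathione synthesis (Gclm), peroxide reduction (Prdx1), glucuronic acid supply (Ugdh) and conjugation (Gsta3, Mgst1).
Nfe2l2: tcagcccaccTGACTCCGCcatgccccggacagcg
Gclm: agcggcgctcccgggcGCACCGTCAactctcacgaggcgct
Prdx1: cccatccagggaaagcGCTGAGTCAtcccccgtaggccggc
Ugdh: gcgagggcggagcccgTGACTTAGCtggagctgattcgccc
Gsta3: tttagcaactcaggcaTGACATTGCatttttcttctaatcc
Mgst1: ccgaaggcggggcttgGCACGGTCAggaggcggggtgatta
They lie at chr2:75704879-75704913, minus strand; chr3:122245407-122245447, plus strand; chr4:116685450-116685490, plus strand; chr5:65435950-65435990, minus strand; chr1:21240448-21240488, plus strand; and chr6:138140455-138140495, plus strand. The motif starts 240, 134, 133, 132, 121 and 56 bases before the start site, in that order.

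Libraries held 18655506 (control 1) to 39379940 (control 2) counts in total. Levels below are in CPM, counts scaled to the library's total and its TMM factor. All 5 hepatocyte markers were detected in every library, with a summed level of 51720 to 98430 CPM. ML 9 and control 1 stood apart from the other libraries. Relative to their mean over the libraries, genes whose exons total less than 1000 bp had a median log2 level of 1.67 in ML 9 and 0.51 in control 1, where the other 8 ran from -0.56 to 0.34. ML 9 also had a TMM factor of 0.577, against 0.933 to 1.165 elsewhere. Its summed level of 6 erythroid markers was 2114 CPM, where controls ran from 184 to 626 CPM, FL from 127 to 249.4 and the other ML libraries had 313 and 382, and its summed level of 6 Kupffer cell and macrophage markers was 878 CPM, against 187 to 376 in the other 9. In liver tissue, fewer cells of a type and less RNA per cell cannot be told apart. Values without one or the other of these libraries stand beside many of the results below.

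Per kilobase of exon, Mgst1, a membrane-bound glutathione transferase and peroxidase, had the highest mean level in controls at 2181 CPM per kb. Gpx1 followed at 1512, Gstm1 at 650, Prdx1 at 393 and Gsta3 at 367 CPM per kb. At the other end of the tested genes were Cbr3 at 1.15, Nqo1 at 4.27 and Gsta1 at 6.15 CPM per kb. The exon length counts all annotated exons of a gene and can exceed the main transcript, so this order depends on the length used. For Prdx1 it was 3043 against 636 bases, for Gsta3 4344 against 1457 and for Gstm1 1473 against 1289. The biological coefficient of variation of the 31 genes had a median of 0.400, against 0.409 for all genes tested. It was lowest for Gsr (0.279) and highest for Hmox1 (0.660).

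**Figure D1:**
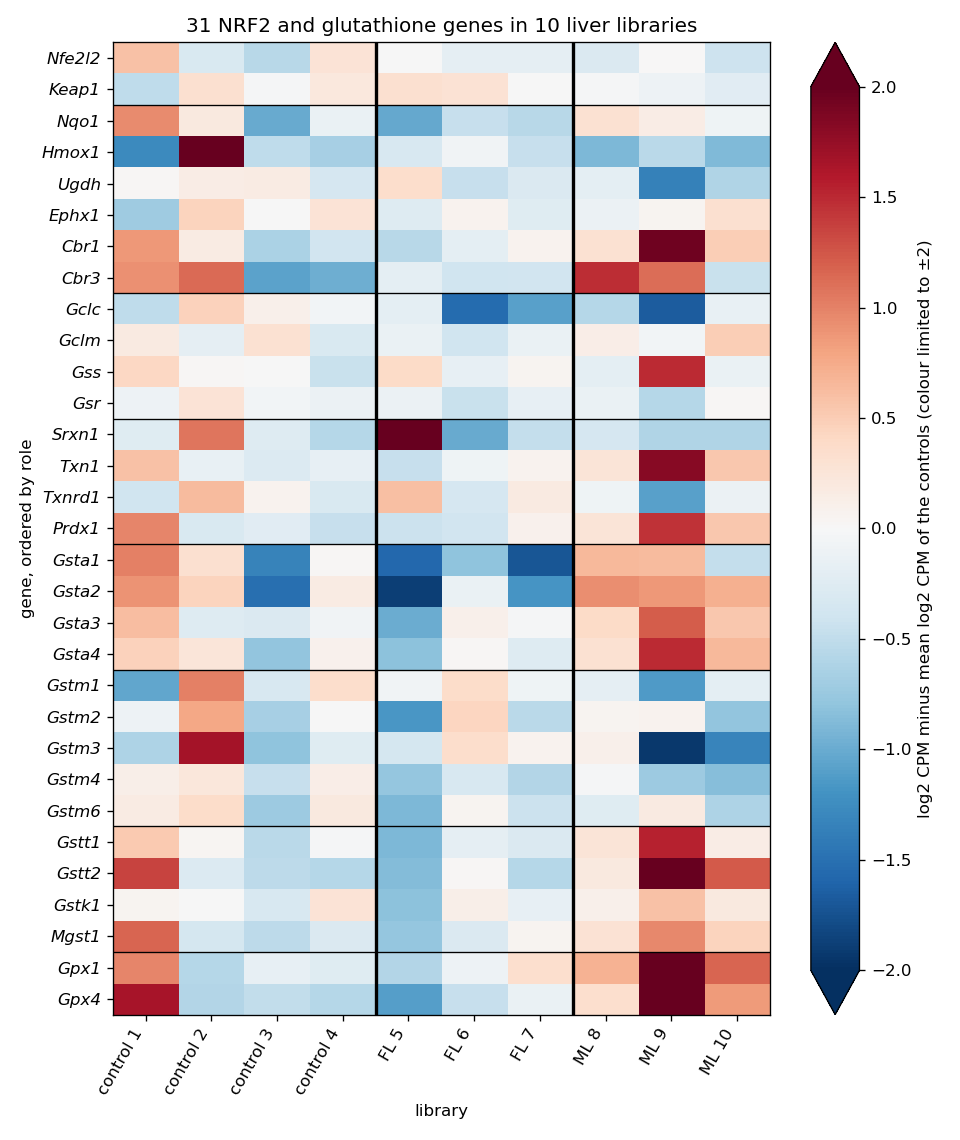
Levels of the 31 tested genes (rows, grouped by role) in the 10 libraries (columns), as log2 CPM minus the mean log2 CPM of the 4 controls, with colour limited to ±2. Control 2 is highest for Hmox1 and Gstm3, ML 9 is highest for Gpx1, Gpx4 and Gstt2, and FL 5 is lowest for 13 of the 31 genes.

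Between FL and control livers, none of the 31 genes passed an adjusted p under 0.05 in edgeR's quasi-likelihood test, against 2 of all genes tested (0.0135%). At an unadjusted p under 0.05 there was 1, Gsta1, with the lower level in FL, against 3.53% of all genes. DESeq2 and limma-voom also passed 0, and each had 2 at an unadjusted p under 0.05. The shares of all genes in those fits were 2.766% and 3.3%. By fold change, 27 of 31 were under 0, the median log2 fold change being -0.34, where 55.29% of all genes were under 0 and their median was -0.05. Without control 1, 19 of 31 lay below 0, with a median of -0.22, against 50.52% of all genes. FL and control libraries did not overlap for 1 of the 31, Gsr, against 5.71% of all genes.

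Between ML and control livers, 0 of the 31 passed in edgeR, against 0.0% of all genes. Unadjusted p was under 0.05 for 5, Gpx1, Gstt2, Txn1, Gpx4 and Gsta4, all with the higher level in ML. Those 5 are 16.13% of the 31, and the background is 16.1% of all genes, so the share is that of the table as a whole. DESeq2 passed 0 with 6 at an unadjusted p under 0.05, and limma-voom 0 with 4. The shares of all genes in those fits were 12.06% and 9.568%. Without ML 9, 0 of the 31 had an unadjusted p under 0.05 in edgeR, against 4.371% of all genes. The median log2 fold change of the 31 then went from 0.14 to -0.0017. For no member did the ML and control libraries separate, against 5.03% of all genes. With control 1 left out 12 separated (38.71%), and so did 39.67% of all genes.

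FL and ML livers come from reciprocal crosses, and this comparison had the most genes with a low unadjusted p. None of the 31 passed in edgeR, against 0.00675% of all genes, but 11 had an unadjusted p under 0.05, all with the lower level in FL, against 20.0% of all genes. DESeq2 and limma-voom passed 0, with 12 and 11 at an unadjusted p under 0.05, against 14.35% and 13.64% of all genes in those fits. The 11 were Gpx1, Gstt2, Gsta2, Gpx4, Gsta1, Gsta4, Gstt1, Txn1, Cbr1, Gsta3 and Prdx1. Libraries of the 2 groups did not overlap for 17 of 31 (54.84%), 14 lower in FL and 3 higher (Keap1, Hmox1 and Gstm1), against 31.7% of all genes. Without ML 9, 3 had an unadjusted p under 0.05, against 4.789% of all genes. Without FL 5 there were 5, against 5.745% of all genes. With control 1 and ML 9 both left out there were 11, against 19.44% of all genes. Libraries did not overlap for 18 of 31 without ML 9 (58.06%, against 39.91% of all genes). Without FL 5 this was 17 (54.84%, against 35.23%). The median log2 fold change was -0.51, and -0.50 without ML 9, where all genes had a median of 0.04 both ways. The 3 comparisons share libraries, so their values stand side by side and do not support one another.

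**Figure D2:**
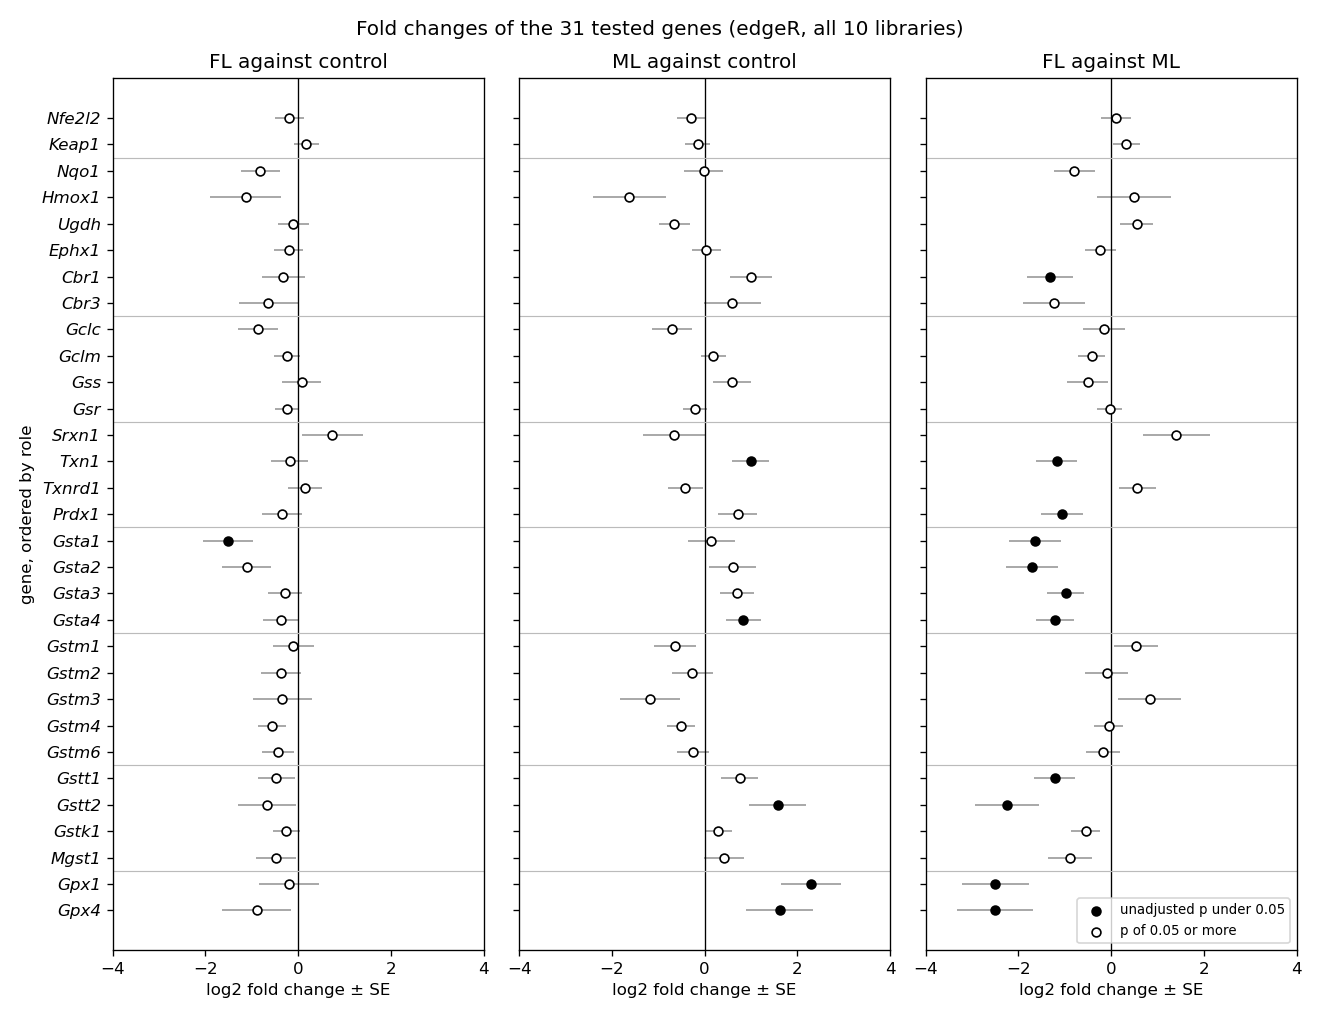
log2 fold changes of the 31 tested genes with standard errors in the 3 comparisons (x axes), ordered by role (y axis); filled points have an unadjusted p under 0.05 in edgeR, and no gene passed after adjustment. In FL against control 27 of 31 points lie below 0, and in FL against ML the 11 filled points all lie below 0.

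Neither regulator had an unadjusted p under 0.05 in edgeR in any of the 3 comparisons. Nfe2l2 (ENSMUSG00000015839, chromosome 2, 75675513 to 75704641) had 71.5, 38.95, 32.6 and 57.9 CPM in controls 1 to 4, 47.5, 42.3 and 42.3 in FL 5 to 7 and 39.1, 48.0 and 36.1 in ML 8 to 10. The controls spanned all FL and ML libraries. Keap1 (ENSMUSG00000003308, chromosome 9, 21229730 to 21239361), the sensor, had 24.5, 43.2, 34.0 and 40.4 CPM in controls, 43.2, 42.5 and 34.3 in FL and 34.1, 32.2 and 29.6 in ML. All 3 FL libraries lay above all 3 ML libraries, and the controls spanned both groups. Keap1 overlaps the antisense gene Gm16754 over 510 of its 4693 exon bases. These are transcript levels, and NRF2 activity is set mainly at the protein level, which was not measured.

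Of the 6 NRF2 target oxidoreductases and detoxifying enzymes, all 6 lay below 0 in FL against control (median -0.48), and 3 of 6 in ML against control. In FL this went to 5 of 6 without control 1 (median -0.39, with Cbr1 at 0.04) and to 5 of 6 without control 2 (median -0.14, with Hmox1 above 0). Nqo1 (ENSMUSG00000003849, chromosome 8, 107388225 to 107403206), quinone reductase and the most used readout of NRF2 activity, had 11.4, 6.80, 2.95 and 5.40 CPM in controls, 2.93, 4.29 and 4.02 in FL and 7.30, 6.59 and 5.61 in ML. All FL libraries lay below all ML libraries. FL 6 and FL 7 were inside the control range and FL 5 was level with its lowest library, control 3, and control 1 was the highest. The control mean was 6.64 ± 3.55 CPM (SD, n = 4) and the FL mean 3.74 ± 0.720 CPM (SD, n = 3), a fitted log2 fold change of -0.82 (SE 0.42), at an adjusted p in edgeR of 1.000. It was -0.43 without control 1.

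Hmox1 (ENSMUSG00000005413, chromosome 8, 75093621 to 75100589), heme oxygenase 1, which opens the heme ring and is also repressed by BACH1, had 8.78, 117, 14.9 and 13.3 CPM in controls, 17.0, 20.3 and 15.4 in FL and 11.4, 14.6 and 11.5 in ML. Control 2 was the high library, and the other 3 controls lay below every FL library. The log2 fold change in FL against control was -1.13 (SE 0.76), and it was 0.51 without control 2, so its sign rested on 1 library. All 3 FL libraries exceeded all 3 ML libraries. Cbr1 (ENSMUSG00000051483, chromosome 16, 93605853 to 93610505), a carbonyl reductase, had 127, 78.5, 45.1 and 53.9 CPM in controls, 47.7, 61.3 and 73.9 in FL and 86.7, 271 and 99.1 in ML. Its log2 fold change was 1.00 (SE 0.46) in ML against control (0.30 without ML 9) and -1.32 (SE 0.50) in FL against ML (-0.62 without ML 9), at adjusted p in edgeR of 0.310 and 0.238. FL and ML libraries did not overlap for it.

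The remaining members of the group overlapped in all 3 comparisons. Cbr3, another carbonyl reductase expressed at a low level, ranged from 0.543 to 3.18 CPM over all libraries. Ugdh, which makes the UDP-glucuronic acid used in glucuronidation, had 181 ± 27.3 CPM in controls, 168 ± 52.4 in FL and 115 ± 43.0 in ML (mean ± SD), with ML 9 lowest at 70.7 CPM. Ephx1, microsomal epoxide hydrolase, had 320.1 ± 99.5, 279 ± 36.4 and 328 ± 51.4 CPM.

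In glutathione synthesis and recycling, 3 of 4 tested genes lay below 0 in FL against control (median -0.24), 2 of 4 in ML against control and 4 of 4 in FL against ML. Without ML 9 these were 3 of 4 in ML against control and 3 of 4 in FL against ML, with Gss at -0.18 and 0.25, and without FL 6 it was 2 of 4 in FL against ML. Gclc (ENSMUSG00000032350, chromosome 9, 77754535 to 77794485), the catalytic subunit of glutamate-cysteine ligase, had 151, 294, 228 and 207 CPM in controls, 188, 73.7 and 100.3 in FL and 144, 67.8 and 193 in ML. FL 6 and FL 7 lay below every control, and FL 5 inside the control range. Its log2 fold change in FL against control was -0.87 (SE 0.43), at an adjusted p in edgeR of 1.000, and -1.34 without FL 5. Its partner Gclm (ENSMUSG00000028124, chromosome 3, 122245557 to 122270732), the modifier subunit, had 219, 172, 240.1 and 157 CPM in controls, 178, 147 and 177 in FL and 213, 187 and 272 in ML. FL lay below ML in every library, and only FL 6 and ML 10 were outside the control range. In ML 9, Gclc was at its lowest of all libraries and Gclm near its middle.

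Gsr (ENSMUSG00000031584, chromosome 8, 33652523 to 33698163), glutathione reductase, which returns oxidised glutathione to its reduced form, had 82.1, 107, 85.4 and 81.3 CPM in controls, 81.1, 65.0 and 78.7 in FL and 80.7, 59.3 and 89.6 in ML. It is the gene whose FL libraries all lay below all controls, by 81.08 against 81.25 CPM at the nearest pair, and its log2 fold change was -0.25 (SE 0.26), or -0.15 without control 2 or without FL 6. Gss, glutathione synthetase, had 77.6 ± 18.6 CPM in controls, 81.8 ± 15.7 in FL and 116 ± 83.9 in ML (mean ± SD), and ML 9 alone was at 213 CPM. Exons of Gss overlap Acss2 and the antisense genes Gssos1 and Gssos2, and those of Gclm overlap Gm17494 and Gm6061, so their reads are uncertain. Slc7a11 (ENSMUSG00000027737, chromosome 3, 49892526 to 50443614), the cystine importer that NRF2 and ATF4 induce in many cells, had 0, 4, 3 and 0 counts in controls, 1, 3 and 1 in FL and 0, 2 and 0 in ML. A count of 0 allows up to 3 counts, so the level could be up to 0.171 CPM in control 1 and 0.0672 CPM in control 4. No test of Slc7a11 was made.

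The thioredoxin system reduces protein disulfides and peroxides with electrons from NADPH. Its 4 genes went both ways in FL against control (2 of 4 below 0, median -0.02). None of the 4 lay below 0 without control 1 (median 0.08) and all 4 without FL 5 (median -0.18). Txn1 (ENSMUSG00000028367, chromosome 4, 57943373 to 57956411), thioredoxin, had 372, 222, 204 and 219.8 CPM in controls, 179.8, 234 and 258 in FL and 295, 869 and 359 in ML. All ML libraries lay above all FL libraries and above all controls but control 1. Its log2 fold change was 1.00 (SE 0.40) in ML against control (0.38 without ML 9, or 0.39 after removal of each library's trend against exon length and GC) and -1.18 (SE 0.43) in FL against ML (-0.56 without ML 9), at adjusted p in edgeR of 0.302 and 0.238. Prdx1, a peroxiredoxin that thioredoxin recycles, had CPM of 794 to 2164 (controls, with control 1 highest), 811 to 1162 (FL) and 1312 to 2994 (ML), and its FL and ML libraries did not overlap. In its main transcript, 39.9% of the 50-base stretches occur in another gene too, so its level is uncertain. Txnrd1, the cytosolic thioredoxin reductase, had 153 ± 52.9 CPM in controls, 168 ± 54.0 in FL and 114 ± 39.3 in ML (mean ± SD), with ML 9 lowest at 68.7 CPM.

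Srxn1, sulfiredoxin, repairs overoxidised peroxiredoxins and is a strongly NRF2-responsive gene in cultured cells. FL 5 had 226 CPM against 25.9 and 37.1 in FL 6 and FL 7. Control 2 had 109 CPM against 34.8 to 43.9 in the other controls, and ML ran from 34.0 to 40.9 CPM. The range within FL was wider than any difference between group means. FL 5 was at the same time the library with the lowest level of 13 of the 31 genes, Nqo1 and 3 of the 4 alpha class transferases among them.

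The alpha class glutathione transferases conjugate electrophiles and reduce lipid hydroperoxides. In FL against ML all 4 had an unadjusted p under 0.05 in edgeR, with the lower level in FL, against 20.0% of all genes. Libraries of FL and ML did not overlap for any of the 4, against 31.7% of all genes without overlap. Without ML 9, or without FL 5, an unadjusted p under 0.05 was left for 2 of the 4. The shares of all genes were then 4.789% and 5.745%. With 1 surrogate variable in the model the unadjusted edgeR p was 0.0826 (Gsta1), 0.0518 (Gsta2), 0.351 (Gsta3) and 0.172 (Gsta4). The share of all genes under 0.05 was then 1.862%, and Gsta3 and Gsta4 had log2 fold changes of -0.30 and -0.59. With the length and GC trend removed, the edgeR p was under 0.05 for Gsta2 (0.041) and Gsta3 (0.028) only, against 16.9% of all genes. In FL against control all 4 lay below 0 (median -0.74, or -0.51 without control 1 and -0.48 without FL 5). In ML against control all 4 lay above 0 (median 0.66), and 3 of 4 without ML 9 (median 0.43, with Gsta1 at -0.0017). Gsta1 (ENSMUSG00000074183, chromosome 9, 78230656 to 78242684) had 10.1, 6.27, 1.99 and 5.11 CPM in controls, 1.70, 2.90 and 1.54 in FL and 7.91, 7.82 and 3.63 in ML. FL libraries lay below every control but control 3, and below every ML library. The control mean was 5.88 ± 3.37 CPM (SD, n = 4), the FL mean 2.05 ± 0.739 CPM (SD, n = 3) and the ML mean 6.45 ± 2.45 CPM (SD, n = 3). The log2 fold change was -1.51 (SE 0.53) in FL against control, with an unadjusted edgeR p of 0.0152 and an adjusted p of 1.000. In FL against ML it was -1.65 (SE 0.56), at an adjusted p in edgeR of 0.238, or -0.98 with the length and GC trend removed.

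Gsta2 (ENSMUSG00000057933, chromosome 9, 78331018 to 78355788) had 43.0, 31.2, 8.07 and 25.9 CPM in controls, 6.26, 21.1 and 10.2 in FL and 43.8, 41.8 and 37.8 in ML. Like Gsta1 it was low in control 3 and in FL 5 and FL 7. The ML libraries lay close together at 41.1 ± 3.02 CPM (SD, n = 3), against 12.5 ± 7.66 CPM (SD, n = 3) in FL. The log2 fold change was -1.72 (SE 0.56) in FL against ML, at an adjusted p in edgeR of 0.238, and -1.73 without ML 9. It was -1.16 with the length and GC trend removed. In FL against control it was -1.11 (SE 0.53) with an adjusted p of 1.000, and -1.71 without FL 6. For Gsta1 and Gsta2, 89.7% and 64.2% of the 50-base stretches of the main transcript occur in transcripts of any other gene too. Over all annotated transcripts, Gsta1 shared most with Gm3776, and Gsta2 shared most with Gsta1. The first 60 coding bases, shown here because they are identical, give no way to assign a read to either gene.
Gsta1: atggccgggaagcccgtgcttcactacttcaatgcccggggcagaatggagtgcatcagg
Gsta2: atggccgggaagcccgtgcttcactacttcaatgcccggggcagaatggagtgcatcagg
The values of both genes are uncertain for that reason.

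Gsta3 (ENSMUSG00000025934, chromosome 1, 21240589 to 21265661) and Gsta4 (ENSMUSG00000032348, chromosome 9, 78182774 to 78209349), the second of which prefers hydroxynonenal and other lipid aldehydes, have no such shared stretches. Gsta3 had 2353, 1286, 1266 and 1469 CPM in controls, 775, 1651 and 1511 in FL and 1999, 3555 and 2244 in ML, with a fitted log2 fold change of -0.99 (SE 0.40) in FL against ML (-0.71 without ML 9). Gsta4 had 71.7, 61.6, 30.2 and 55.1 CPM in controls, 29.6, 53.1 and 43.6 in FL and 64.2, 146 and 82.0 in ML. ML 9 was the highest library for both and FL 5 the lowest, and FL and ML did not overlap for either gene. The log2 fold change of Gsta4 was 0.83 (SE 0.38) in ML against control (0.43 without ML 9) and -1.21 (SE 0.41) in FL against ML (-0.81 without ML 9 and -0.58 with the length and GC trend removed), at adjusted p in edgeR of 0.307 and 0.238.

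**Figure D3:**
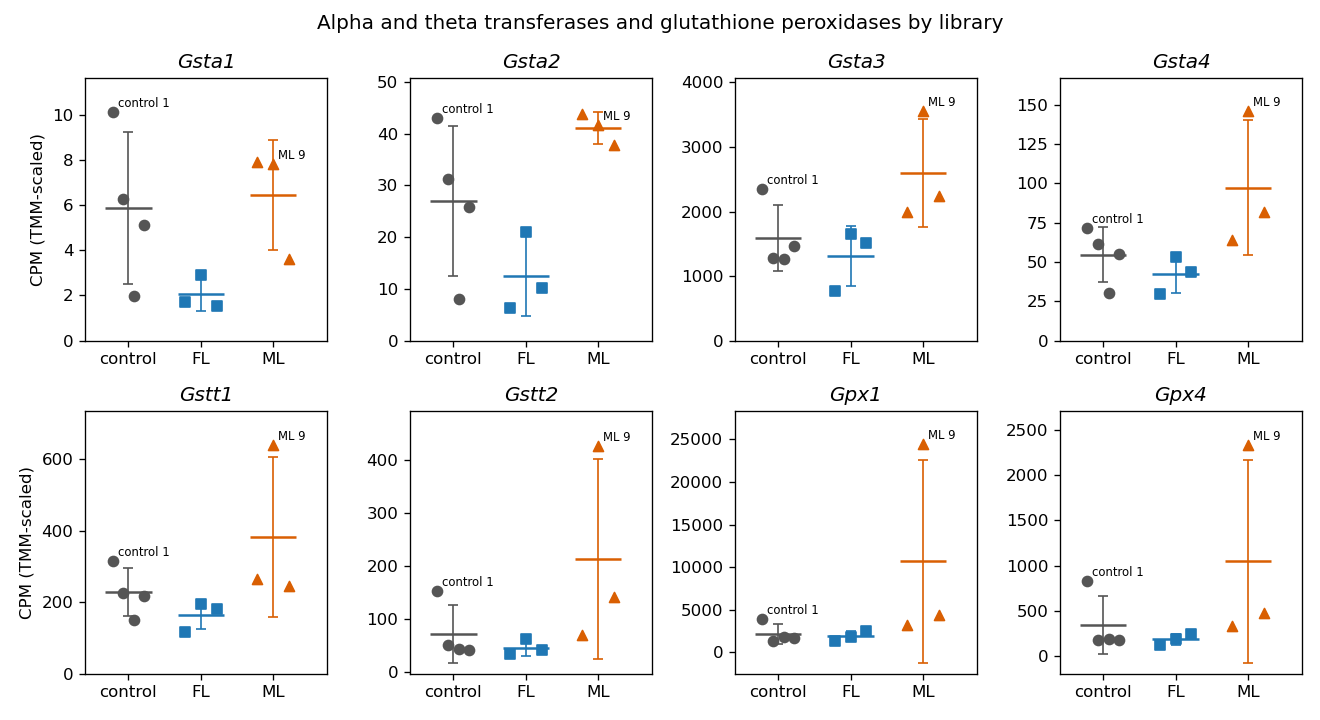
CPM (y axes, linear, a scale per gene) of 4 alpha class transferases, 2 theta class transferases and 2 glutathione peroxidases in control, FL and ML libraries (x axes); points are libraries, horizontal lines group means and bars ±1 SD, and control 1 and ML 9 are labelled. Gsta2 lies at 37.8 to 43.8 CPM in ML and 6.26 to 21.1 in FL, while the ML means of Gpx1 and Gpx4 are set by ML 9, whose spread takes their SD bars below 0.

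The mu class, another cytosolic family, showed a different order, with control 2 highest for all 5 members. All 5 lay below 0 in FL against control (median -0.37) and in ML against control (median -0.51), and none had an unadjusted p under 0.05 in any comparison. Without control 2 the counts were 3 of 5 in FL (median -0.04), with Gstm1 at 0.32 and Gstm3 at 0.59, and 4 of 5 in ML (median -0.21), with Gstm2 at 0.06. The FL median was -0.18 without FL 5. Gstm4 (ENSMUSG00000027890, chromosome 3, 108040408 to 108044894) had 57.3, 61.8, 38.3 and 57.9 CPM in controls, 31.04, 42.5 and 35.3 in FL and 51.9, 31.9 and 29.3 in ML. FL 5 and FL 7 lay below every control and FL 6 above control 3, and the log2 fold change was -0.57 (SE 0.30), at an adjusted p in edgeR of 1.000. Gstm1, the most abundant of the class, had CPM of 408 to 1682 (controls), 792 to 1087 (FL) and 381 to 744 (ML), and was 1 of the 3 genes with all FL libraries above all ML libraries. Gstm3 had 123 CPM in control 2, where the other controls ran from 22.1 to 32.8, FL from 30.4 to 49.3 and ML from 10.1 to 41.7. Gstm2 and Gstm6 ranged from 26.2 to 101 and from 53.0 to 127 CPM over all libraries. For Gstm3 and Gstm1, 28.8% and 23.1% of the 50-base stretches of the main transcript occur in another gene too.

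Gstp1 (ENSMUSG00000060803, chromosome 19, 4035407 to 4037985), the pi class transferase, had 0, 0, 1 and 1 counts in controls, 1, 2 and 1 in FL and 0, 1 and 0 in ML, and was not tested. Its neighbours Gstp2 and Gstp3 had at most 1 and 0 counts. A processed pseudogene of the class, Gstp-ps (ENSMUSG00000103653, chromosome 1, 192073820 to 192074450), had 160, 432, 706 and 452 counts in controls, 496, 581 and 566 in FL and 346, 482 and 645 in ML. It was looked up after the counts of Gstp1 were seen. Over its 631 bases the pseudogene matches Gstp1 at 97.6% and Gstp2 at 99.2%, and 60.5% and 71.1% of its 50-base stretches are found unchanged in them. Gstp1 and Gstp2 differ at 12 of 630 coding bases. The start of the coding sequence is shown with the differences in capitals.
Gstp1: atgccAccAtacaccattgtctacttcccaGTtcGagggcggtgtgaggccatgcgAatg
Gstp2: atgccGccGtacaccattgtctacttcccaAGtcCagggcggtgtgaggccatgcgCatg
How the authors' counting treated reads that fit several genes is not given in the sources used here, and its part in these counts was not tested. The pi class level in these livers cannot be read from the Gstp1 row alone. On the CPM scale, Gstp-ps was at 12.1 ± 4.16 in controls, 17.2 ± 1.01 in FL and 20.2 ± 11.2 in ML (mean ± SD), at adjusted p in edgeR of 1.000 in FL and 0.353 in ML against control.

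Among the theta, kappa and microsomal transferases, all 4 tested genes lay below 0 in FL against control (median -0.47) and above 0 in ML against control (median 0.58). Without control 1, 2 of 4 lay below 0 in FL (median -0.11), with Gstt2 at 0.02 and Mgst1 at 0.08, and without FL 5 all 4 (median -0.28). Without ML 9 all 4 lay above 0 in ML at a lower median of 0.19. Gstt2 (ENSMUSG00000033318, chromosome 10, 75831114 to 75837424) had 153, 49.9, 42.1 and 40.7 CPM in controls, 32.8, 61.4 and 40.4 in FL and 69.2, 427 and 141 in ML. ML 9, control 1 and ML 10 were the high libraries. Its log2 fold change was 1.57 (SE 0.62) in ML against control (0.57 without ML 9) and -2.24 (SE 0.69) in FL against ML (-1.25 without ML 9), at adjusted p in edgeR of 0.302 and 0.238. Gstt1 (ENSMUSG00000001663, chromosome 10, 75783813 to 75798584) had 316, 226, 151 and 217 CPM in controls, 118, 194 and 180.3 in FL and 264, 641 and 244 in ML. All ML libraries lay above all FL libraries, at a fitted log2 fold change of -1.22 (SE 0.43) in FL against ML, or -0.65 without ML 9.

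Mgst1 had 8642 CPM in control 1, and the other controls ran from 2689 to 3186 CPM. FL ran from 2271 to 4012 CPM and ML from 4751 to 7522, so that every ML library was above every FL library. Gstk1, the kappa class transferase of mitochondria and peroxisomes, was the steadiest of the 4, with 106 ± 17.8 CPM in controls, 88.5 ± 27.3 in FL and 129.6 ± 23.9 in ML (mean ± SD).

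The 2 glutathione peroxidases had the 2 highest fold changes of the 31 genes in ML against control, the 2 lowest in FL against ML, and the widest range over libraries. Gpx1 (ENSMUSG00000063856, chromosome 9, 108338903 to 108340343), the main cytosolic enzyme that reduces hydrogen peroxide with glutathione, had 3928, 1339, 1770 and 1675 CPM in controls, 1324, 1845 and 2509 in FL and 3219, 24430 and 4432 in ML. ML 9 was 18.5 times the lowest library, and control 1 and ML 10 were next. Its log2 fold change in ML against control was 2.29 (SE 0.65), with an unadjusted edgeR p of 0.00436 and an adjusted p of 0.302, and it was 0.83 without ML 9. In FL against ML it was -2.50 (SE 0.73), at an adjusted p in edgeR of 0.238, and -1.03 without ML 9. With 1 surrogate variable in the model it was -0.37. Gpx4 (ENSMUSG00000075706, chromosome 10, 80047166 to 80056439), which reduces lipid hydroperoxides in membranes and guards against ferroptosis, had 826, 175, 187 and 177 CPM in controls, 123, 190.1 and 239.8 in FL and 331, 2337 and 473 in ML. ML 9 was again the highest library, followed by control 1 and ML 10.

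The log2 fold change of Gpx4 in ML against control was 1.62 (SE 0.73), at an adjusted p in edgeR of 0.307. It was 0.25 without ML 9, 2.55 without control 1 and -0.05 with 1 surrogate variable in the model. In FL against ML it was -2.51 (SE 0.82), -1.14 without ML 9 and -0.16 with 1 surrogate variable. All 3 ML libraries lay above all 3 FL libraries for both peroxidases. In FL against control both genes lay below 0, at -0.20 for Gpx1 and -0.89 for Gpx4, and both above 0 without control 1, at 0.25 and 0.04. Of the 50-base stretches of the main Gpx4 transcript, 61.7% are shared with another gene, its pseudogene Gpx4-ps2 among them.

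Which libraries were high or low differed between roles. ML 9 was the highest library for 11 of 31 genes (35.48%), against 28.88% of all genes tested, and control 2 for 11, against 12.38%. The genes highest in ML 9 were Cbr1, Gss, Txn1, Prdx1, Gsta3, Gsta4, Gstt1, Gstt2, Gstk1, Gpx1 and Gpx4. Those highest in control 2 were Keap1, Hmox1, Ephx1, Gclc, Gsr, Txnrd1 and the 5 mu class genes. FL 5 was the lowest library for 13 genes, against 14.15% of all genes. In ML 9 the 9 genes with under 1500 bp of exon lay a median of 0.94 (log2) above their mean over the libraries and the 22 longer ones 0.19. In control 1 these medians were 0.38 and 0.33. Length here counts all annotated exons, so genes with a main transcript under 1500 bases also fell among the 22. Among them were Gpx4 (995 bases), Cbr1 (1237), Gstt2 (1370) and Mgst1 (1167), so the split is not one of transcript length. The part of length, of blood cells or of RNA quality in the ML 9 values was not tested. Leaving ML 9 out brought Gpx1, Gpx4, Gstt2, Txn1 and Cbr1 nearer to 0, while Gsta1 and Gsta2 in FL against ML stayed at -1.51 and -1.73. With the length and GC trend removed Gsta1 and Gsta2 were at -0.98 and -1.16, and with 1 surrogate variable at -1.17 and -1.39. In the same comparison Gstt2, Txn1 and Cbr1 were at -0.42, -0.19 and -0.18 with 1 surrogate variable.

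**Figure D4:**
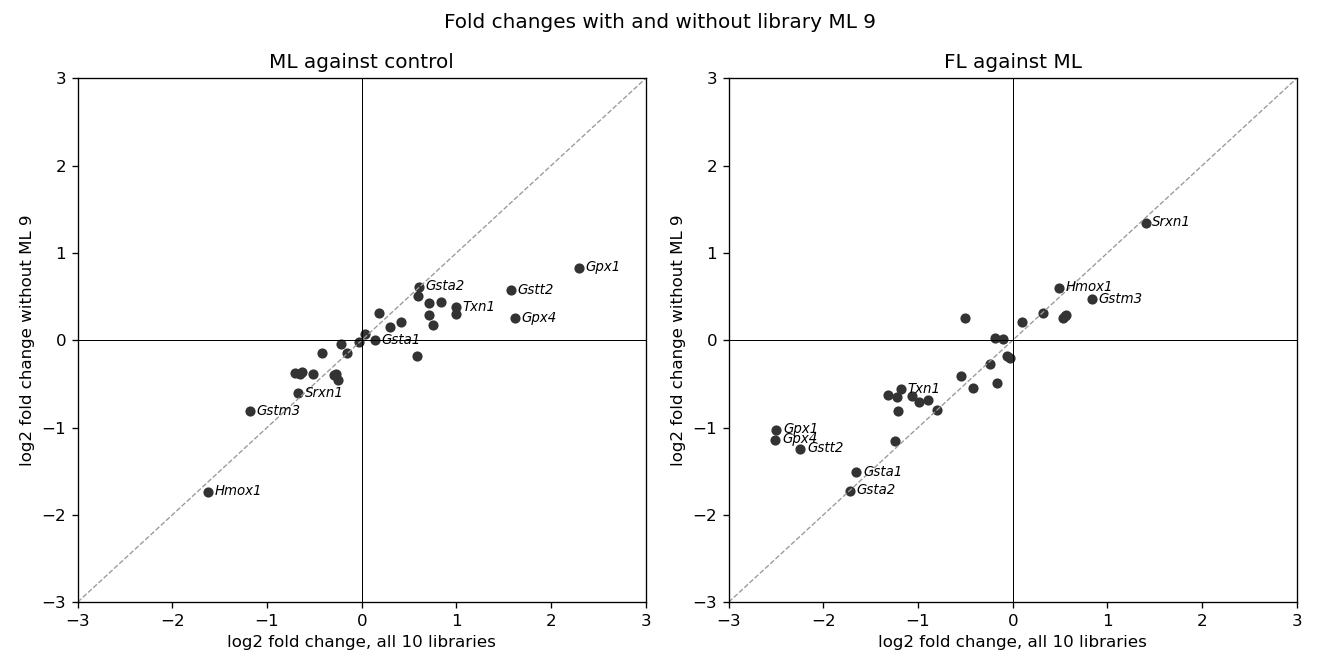
log2 fold changes of the 31 tested genes with all 10 libraries (x axes) and without ML 9 (y axes), for ML against control and FL against ML; the dashed line marks equal values. Gpx1, Gpx4 and Gstt2 lie far from the line, at 2.29, 1.62 and 1.57 with ML 9 and 0.83, 0.25 and 0.57 without it in ML against control, while Gsta1 and Gsta2 lie near it.

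Genes of the same pathways outside the 33 were read from 5 further lists, with 61 of 69 genes tested, and none passed in edgeR. Among 9 regulators and partners of NRF2, 1 in FL (11.11%), 3 in ML (33.33%) and 1 in FL against ML (11.11%) had an unadjusted p under 0.05, where the shares of all genes were 3.53%, 16.1% and 20.0%. Without ML 9 there were 0 in ML and 0 in FL against ML, against 4.371% and 4.789% of all genes. Maff, a small MAF partner, had 14.4, 53.9, 28.2 and 8.09 CPM in controls and 5.48, 6.95 and 2.39 in FL, a fitted log2 fold change of -2.40 (SE 0.65), at an adjusted p in edgeR of 0.773; DESeq2 called it at an adjusted p of 0.0276. All 3 FL libraries lay below all controls. Rbx1, a subunit of the KEAP1 ubiquitin ligase, was at 1.06 (SE 0.39) in ML, and 0.50 without ML 9.

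Among 17 other NRF2 target candidates for NADPH supply, iron storage, export and bilirubin handling, 15 lay below 0 in FL against control (median -0.35) and 9 in ML against control (median -0.39). Without control 1, 14 lay below 0 in FL (median -0.22), and without ML 9, 13 in ML (median -0.55). Me1, malic enzyme, a source of NADPH that insulin and lipogenic signals also drive, had 304, 216, 106 and 193 CPM in controls, 78.9, 55.2 and 89.9 in FL and 124, 70.0 and 89.7 in ML. All FL libraries and ML 9 and ML 10 lay below every control, with log2 fold changes of -1.46 (SE 0.38) and -1.11 (SE 0.38) at adjusted p in edgeR of 0.742 and 0.302. Osgin1, a stress-induced growth inhibitor, was the exception among the 3 lowest in p in FL: all FL libraries (354, 200.8 and 122 CPM) lay above all controls (20.7, 79.1, 79.5 and 49.1), at 1.98 (SE 0.72). Abcc3, a conjugate exporter, was at -0.89 (SE 0.35) in FL. Blvrb, biliverdin reductase B, was at 1.77 (SE 0.63) in ML, and 0.39 without ML 9, and Pgd, of the pentose phosphate pathway, at -0.95 (SE 0.33).

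Of 12 further glutathione transferases 7 were tested. All 7 lay below 0 in FL against control (median -0.23) and 5 above 0 in ML against control (median 0.62). Without control 1, 5 lay below 0 in FL (median -0.05), and without ML 9, 6 above 0 in ML (median 0.23). Mgst3, a microsomal enzyme, had 27.6, 11.2, 6.81 and 10.0 CPM in controls, 4.22, 6.52 and 6.64 in FL and 15.2, 89.2 and 23.1 in ML. FL lay below every control and every ML library. The log2 fold change in FL against ML was -2.87 (SE 0.70), at an adjusted p in edgeR of 0.238, and -1.74 without ML 9; DESeq2 called it at an adjusted p of 0.0170. Gstz1, of tyrosine breakdown, was at 1.31 (SE 0.53) in ML, and 0.29 without ML 9.

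Of 20 other glutathione and peroxide enzymes 18 were tested, with 1, 5 and 10 at an unadjusted p under 0.05 in FL against control, ML against control and FL against ML. These are 5.556%, 27.78% and 55.56%, against 3.53%, 16.1% and 20.0% of all genes. Without ML 9 there were 0 in ML against control, where the share of all genes was 4.371%. In FL against ML there were 2 without ML 9 (11.11%, against 4.789% of all genes) and 1 without FL 5 (5.556%, against 5.745%). Txnip, the thioredoxin-binding protein that glucose induces, had 101, 198, 164 and 87.6 CPM in controls, 53.2, 35.7 and 41.8 in FL and 50.2, 141 and 144 in ML. All FL libraries lay below all controls, at -1.66 (SE 0.43), at an adjusted p in edgeR of 0.703, and DESeq2 called it at an adjusted p of 0.0447. Gpx7 was at 1.50 (SE 0.52) in ML, and 0.95 without ML 9. Of 11 genes of glutathione supply and turnover 10 were tested, and all 10 lay below 0 in FL against control (median -0.39), and 9 without control 1. Chac1, which breaks glutathione down inside the cell, was at -1.05 (SE 0.56) there, and -1.88 without FL 6. Cbs, which commits homocysteine to cysteine synthesis, had 216, 557, 373 and 589.5 CPM in controls and 259, 124 and 154 in ML, a fitted log2 fold change of -1.28 (SE 0.41), at an adjusted p in edgeR of 0.302, or -0.83 with the length and GC trend removed. Control 1 lay inside the ML range and the other 3 controls above it. Esd, S-formylglutathione hydrolase, was at -1.27 (SE 0.42) in FL against ML, and -0.79 without ML 9.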

How the data were processed

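Liver RNA was sequenced as polyadenylated, directional, paired-end libraries on an Illumina HiSeq instrument, per the labels' protocols. The authors deposited raw counts of reads per gene, and per the submitters' processing notes they used STAR, featureCounts and GRCm38; their versions, annotation release, strand setting and handling of reads that fit several genes are not stated there. Symbols, positions and exon lengths came from GENCODE M21, which matched 45229 of the 46071 rows.

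Gene tests used edgeR 4.0.16 (R 4.3.3) on all 10 libraries: scaling by TMM, low counts removed by filterByExpr (minimum count 10), and a robust two-sided quasi-likelihood F test with a coefficient per group, adjusted by Benjamini-Hochberg over 14820 genes at a threshold of 0.05. The fit had 7 residual degrees of freedom and a common biological coefficient of variation of 0.448. The standard error (SE) is the log2 fold change divided by the square root of F. The procedure was tested on simulated data. No group held duplicate libraries: counts of any pair departed from sampling error (chi-square over its degrees of freedom at least 82.5). The labels do not state that libraries come from separate animals: a p-value here rests on the spread among libraries, which may be technical. The replicate numbers, 1 to 10, are shared by no groups and pair nothing.

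Every gene of the 33 is named. Given library by library are Nfe2l2, Keap1, Nqo1, Gclc, Gclm, Slc7a11, Hmox1 and Gstp1 and, per comparison, the 6 with the lowest p and up to 4 more whose groups do not overlap. From the further pathway lists, those named are among the 3 lowest in p of a list. The genes and the lists were chosen with earlier results of these data known. Alternatives were limma-voom 3.58.1 with and without sample weights, DESeq2 1.42.0, other scaling and filters, fitting only the 2 groups compared, 1 surrogate variable (sva 3.50.0), removal of each library's trend against exon length and GC, and leaving out libraries.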

Additional observations from a re-analysis of the deposited data

Results flagged for a closer look

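In 10 of the 31 tested genes, 1 control library lay far from the other 3 by a Dixon test at the 95% level, which chance alone gives in about 1 in 20 groups. The library was control 1 for 6 genes and control 2 for 4. Control 1 was the high library for Mgst1 at 8642 CPM, Gpx1 at 3928 CPM, Prdx1 at 2164 CPM, Gpx4 at 826 CPM, Txn1 at 372 CPM and Gstt2 at 153 CPM. Control 2 was the high library for Gstm3 at 123 CPM, Hmox1 at 117 CPM, Srxn1 at 109 CPM and Gsr at 107 CPM.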

How the results depend on the processing

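No gene of the 33 passed an adjusted p under 0.05 under any alternative in any of the 3 comparisons. The median log2 fold change of the 31 genes moved by less than 0.256 under every alternative. That is the SD between libraries of the genes' median level. This margin is wider than the ML against control median of 0.14, so a turn of its sign stays inside it. The ML median was -0.065 with the trend removed, -0.012 with a surrogate variable and -0.0017 without ML 9. In FL against ML the median went from -0.51 to -0.26 with a surrogate variable. Of the fold changes of the 31 genes over the alternatives, 522 of 558 in FL against control, 529 of 558 in ML against control and 491 of 527 in FL against ML kept their direction and their side of the threshold. The sign turned at least once for 16, 13 and 13 genes, given below with the log2 fold change under the alternative.

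Genes passing over the whole table in FL against control, 2 in the report, were 1 with limma-voom, 4 with sample weights, 1 with no filter, 54 with DESeq2 and 0 to 2 with a library left out. In ML against control, 0 in the report, they were 3 with no filter, 56 with DESeq2 and 0 to 1 with a library left out. In FL against ML, 1 in the report, they were 4 with sample weights, 2 with no filter, 35 with DESeq2, 0 with only the groups compared, 0 with the trend removed and 0 to 1 with a library left out.

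Of the 33, the number at an unadjusted p under 0.05 in FL against control, 1 in the report, was 2 with limma-voom, upper-quartile scaling, no filter, DESeq2, only the groups compared, or control 1 and ML 9 left out, 3 with sample weights or a surrogate variable, and 0 to 4 with a library left out. The share of all genes, 3.529% in the report, was 1.746% (without FL 5) to 4.103% (without control 2) with a library left out. With sample weights it was 7.591%, and with a surrogate variable 6.35%. With the other alternatives named it ran from 2.766% (DESeq2) to 6.805% (control 1 and ML 9 left out). In ML against control the number was 5 in the report, against 16.14% of all genes. It was 11 with sample weights (34.77% of all genes) and 2 with only the groups compared (10.32%). It was 0 with a surrogate variable (2.544%), 3 with the trend removed (12.83%) and 9 without control 1 and ML 9 (27.51%). With a library left out it ran from 0 without ML 9 (4.371%) to 12 without control 1 (35.08%). In FL against ML the number was 11 in the report, against 20.0% of all genes, and 1 with a surrogate variable (1.862%). With a library left out it ran from 3 without ML 9 (4.789%) to 12. The 12 came without FL 7 (18.13%), ML 8 (23.46%) or ML 10 (17.15%).

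In FL against control, limma-voom turned Gstm1 (0.080) and Gstm3 (0.013). Sample weights turned Cbr1 (0.060), Cbr3 (0.11), Txn1 (0.014), Prdx1 (0.078) and Gpx1 (0.16). A surrogate variable turned Txn1 (0.0026) and Gpx1 (0.17). Removing the trend turned Gss (-0.11) and Txn1 (0.030). Leaving out control 1 and ML 9 together turned Nfe2l2 (0.037), Cbr1 (0.050), Txn1 (0.062), Prdx1 (0.11), Gstt2 (0.025), Mgst1 (0.090), Gpx1 (0.25) and Gpx4 (0.042). Leaving out control 2 turned Hmox1 (-1.46 to 0.51), Gstm1 (-0.35 to 0.32) and Gstm3 (-0.59 to 0.59), the ranges being over every library left out in turn. Leaving out control 1 turned Nfe2l2 (-0.35 to 0.030), Cbr1 (-0.51 to 0.044), Txn1 (-0.30 to 0.057), Prdx1 (-0.53 to 0.10), Gstt2 (-0.96 to 0.021), Mgst1 (-0.69 to 0.085) and Gpx4 (-1.12 to 0.037). Leaving out FL 6 turned Ugdh (-0.39 to 0.051). Leaving out control 4 or FL 5 turned Gss (-0.078 to 0.23). Leaving out FL 5 turned Srxn1 (-0.87 to 1.25) and Txnrd1 (-0.11 to 0.40). Leaving out control 1 or FL 5 turned Gpx1 (-0.46 to 0.25).

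In ML against control, limma-voom turned Nqo1 (0.17). Sample weights turned Nqo1 (0.30) and Ephx1 (-0.029). Upper-quartile scaling turned Nqo1 (0.0036). A surrogate variable turned Gpx4 (-0.048), Keap1 (0.14), Gss (-0.21), Txnrd1 (0.046), Prdx1 (-0.012), Gsta1 (-0.18), Gstm1 (0.25) and Mgst1 (-0.16). Removing the trend turned Keap1 (0.13), Ephx1 (-0.17), Gsta1 (-0.24) and Gstk1 (-0.065). Leaving out control 1 and ML 9 together turned Nqo1 (0.36), Ephx1 (-0.12) and Gss (-0.035). Leaving out control 1 or ML 10 turned Nqo1 (-0.27 to 0.37) and Ephx1 (-0.15 to 0.19). Leaving out control 2 turned Hmox1 (-1.95 to 0.018) and Gstm2 (-0.45 to 0.062). Leaving out ML 9 turned Gss (-0.18 to 0.86). Leaving out control 3, ML 8 or ML 9 turned Gsta1 (-0.15 to 0.53).

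In FL against ML, sample weights turned Gss (0.16), Gstm2 (0.012), Gstm4 (0.0080) and Gstm6 (0.014). No filter turned Gsr (0.0055). A surrogate variable turned Keap1 (-0.015), Hmox1 (-0.63), Gss (0.46), Txnrd1 (-0.0097), Gstm1 (-0.39), Gstm3 (-0.071) and Gstm6 (0.046). Removing the trend turned Keap1 (-0.073), Ephx1 (0.014), Gsr (0.080), Gstm2 (0.25), Gstm4 (0.22) and Gstm6 (0.12). Leaving out control 1 and ML 9 together turned Gss (0.27), Gstm2 (0.034) and Gstm6 (0.045). Leaving out FL 6 or ML 10 turned Gclc (-0.63 to 0.20). Leaving out ML 9 turned Gss (-0.78 to 0.25). Leaving out FL 6, ML 8 or ML 10 turned Gsr (-0.20 to 0.11). Leaving out FL 5 turned Srxn1 (-0.20 to 1.86). Leaving out FL 5, FL 7, ML 8 or ML 9 turned Gstm2 (-0.64 to 0.21). Leaving out FL 5 or ML 8 turned Gstm4 (-0.20 to 0.25). Leaving out FL 5 or ML 9 turned Gstm6 (-0.45 to 0.032).

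Among the pathway genes named outside the 33, signs turned for Glrx3 in FL, from -0.57 to 0.087 with sample weights and 0.18 without control 1 and ML 9, and it ran from -0.77 to 0.17 (without control 1) with a library left out; and in FL against ML with a surrogate variable for Prdx2 (0.068) and Cbs (-0.054). The cause of these changes was not tested. No paired analysis was possible because the groups share no replicate number. With at most 4 counts in a library, Slc7a11 could not be compared at this depth.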
